A study of Rattus norvegicus with 6 samples.

Results

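The genes described here are 10 genes of the NF-kappa B response: the feedback regulators Bcl3, Nfkbia, Nfkbiz and Tnfaip3, the subunit Relb, the chemokines Cxcl1, Cxcl2, Cxcl10 and Ccl2, and the adhesion molecule Icam1. A probe was taken when the gene symbol in the deposited array table equalled a member's symbol, which gave 9 probes with 49 spots for 9 of the 10 genes, out of 19958 genes with an identifier. Relb matched no probe and was not analysed here. The members were chosen by known function with the treated minus control signals of these same arrays in view, so those treated minus control differences are given as a description, with no test.

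Rat RNA was hybridised to 6 one-colour arrays, 1 for each group. The liver and kidney arrays came from Wistar rats, called mice in places in the labels, that ate the AIN-93G diet for 4 weeks. The control rats received it complete and the iron-free rats received it with no iron, and their age is not given in the sources used here. Each tissue array held the pooled RNA of 6 animals. The other pair came from FAO cells, a rat liver cell line derived from a hepatoma, grown with 10% fetal bovine serum. The treated array held cells kept for 24 h in 100 µM deferoxamine (DFO), an iron chelator, and the untreated array cells kept for as long with vehicle at 0 µM. Each FAO array held the pooled RNA of 3 cultures of this single line. Pooling left 1 array per group, so there is no replicate check of any difference. Errors below are standard errors (SE) from the spread between repeated spots of a probe on 1 array and cover the technical error of spotting only.

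NF-kappa B is a family of dimeric transcription factors held in the cytoplasm by I-kappa-B proteins. Signals such as tumour necrosis factor, interleukin-1 or bacterial lipopolysaccharide lead to destruction of the inhibitor, and the dimer then enters the nucleus and binds kB sites in promoters. Among its targets are its own inhibitors, which close a negative feedback loop, and chemokines and adhesion molecules, which in liver and kidney bring leukocytes out of the blood.

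Values are scaled signals, meaning the deposited background-subtracted intensity after each array was set to the same 75th percentile, and log2 differences of them. A probe counted as measured when all of its used spots were well above background by the scanner software's own test. Where only 1 array of a pair measured it, the difference is a bound: the bright array against the higher of the dim probe's own signal and the dimmest signal that the dim array could measure. A bound set by the dim probe's own signal equals the difference of the signals as measured and is not a strict lower limit. The 6 arrays measured 37.7% to 48.8% of probes and had 0 saturated spots. The control liver array stood apart in spot quality. Repeated spots departed widely from each other in 47 of its 264 blocks of 16 by 16 spots, against 0 to 13 blocks on the other arrays, and the median coefficient of variation between spots of a probe was 21.0% against 6.69% to 10.9%. The tissue labels matched their defining markers. All 10 hepatocyte markers were measured on the liver and FAO arrays, and all 8 tubule markers on the kidney arrays. In bulk RNA, fewer cells of a type and less RNA per cell cannot be told apart.

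The promoters of the members that differed most in FAO cells (Cxcl1, Cxcl2, Cxcl10, Bcl3) and of Nfkbia, which differed little there, are shown because all of these genes are known NF-kappa B targets. RefSeq's table for the GRCr8 assembly held 8 of the 10 members (no Relb or Ccl2). Each sequence is the 250 bases before the annotated start, read 5′ to 3′ on the gene's strand, with matches to the kB consensus in capitals. The Cxcl1 window is chr14:17479322-17479571, the Cxcl2 window chr14:17467256-17467505, the Bcl3 window chr1:88613556-88613805 and the Nfkbia window chr6:78597073-78597322, all on the minus strand. The Cxcl10 window, chr14:15988816-15989065, is on the plus strand.
Cxcl1: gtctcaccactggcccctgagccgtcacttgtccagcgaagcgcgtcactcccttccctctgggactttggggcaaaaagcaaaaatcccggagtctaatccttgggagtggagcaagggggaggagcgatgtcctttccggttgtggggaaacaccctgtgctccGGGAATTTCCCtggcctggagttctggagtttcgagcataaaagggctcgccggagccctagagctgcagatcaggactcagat
Cxcl2: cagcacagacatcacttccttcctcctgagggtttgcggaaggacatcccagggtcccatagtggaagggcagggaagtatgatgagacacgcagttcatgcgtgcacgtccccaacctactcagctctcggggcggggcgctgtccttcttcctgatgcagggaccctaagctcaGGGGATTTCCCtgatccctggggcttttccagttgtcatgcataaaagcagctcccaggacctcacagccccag
Cxcl10: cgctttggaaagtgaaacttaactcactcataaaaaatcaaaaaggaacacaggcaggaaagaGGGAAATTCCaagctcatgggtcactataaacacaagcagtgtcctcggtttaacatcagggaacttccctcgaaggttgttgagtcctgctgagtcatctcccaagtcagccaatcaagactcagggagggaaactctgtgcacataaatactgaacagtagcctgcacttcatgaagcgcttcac
Bcl3: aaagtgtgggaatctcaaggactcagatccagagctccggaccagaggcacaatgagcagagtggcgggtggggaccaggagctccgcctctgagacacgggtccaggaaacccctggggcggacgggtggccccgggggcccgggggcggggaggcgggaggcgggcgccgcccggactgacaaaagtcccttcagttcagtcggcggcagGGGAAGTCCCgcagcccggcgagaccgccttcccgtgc
Nfkbia: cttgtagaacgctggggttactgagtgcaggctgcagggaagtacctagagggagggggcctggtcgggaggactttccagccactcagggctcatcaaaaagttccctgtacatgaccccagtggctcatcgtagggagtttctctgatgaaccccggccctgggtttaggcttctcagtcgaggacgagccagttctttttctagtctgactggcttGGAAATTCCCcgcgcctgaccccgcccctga

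A match to the kB consensus, searched on both strands, was found in 7 of the 8 members, against 3.52% of the 27457 promoters in the table. The members were named as NF-kappa B targets, so this count is no independent support. Cxcl1 and Cxcl2, both on chromosome 14, each held 1 match at a like distance, starting 84 and 74 bases before the start. Bcl3 held its match 38 bases before the start, Nfkbia 31 bases, Nfkbiz 13 bases and Cxcl10 187 bases. Tnfaip3 held 3 matches, starting 170, 67 and 55 bases before the start. Icam1, at chr8:27829595-27829844 on the plus strand, held no exact match in this window. It does hold TGGAAATTCC, which departs from the consensus at its first base only, and the search leaves out such near matches in every promoter. A looser kB pattern (GGG, any 5 bases, CC, on either strand), which every consensus match also fits, was found in 8 of 8 members and in 43.5% of all promoters. Other patterns were rarer among the members. The AP-1 element TGANTCA was found in 2 (Tnfaip3, Cxcl10; 6.36% of all promoters) and the hypoxia response core ACGTG in 3 (Nfkbiz, Tnfaip3, Cxcl2; 16.9%). TATAAA was found in 2 (Cxcl10, Icam1; 13.1%) and the interferon element pattern (TTTC, any 2 bases, TTTC) in Cxcl10 alone (3.29%). A match describes letters in the window and shows no binding.

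**Figure D1:**
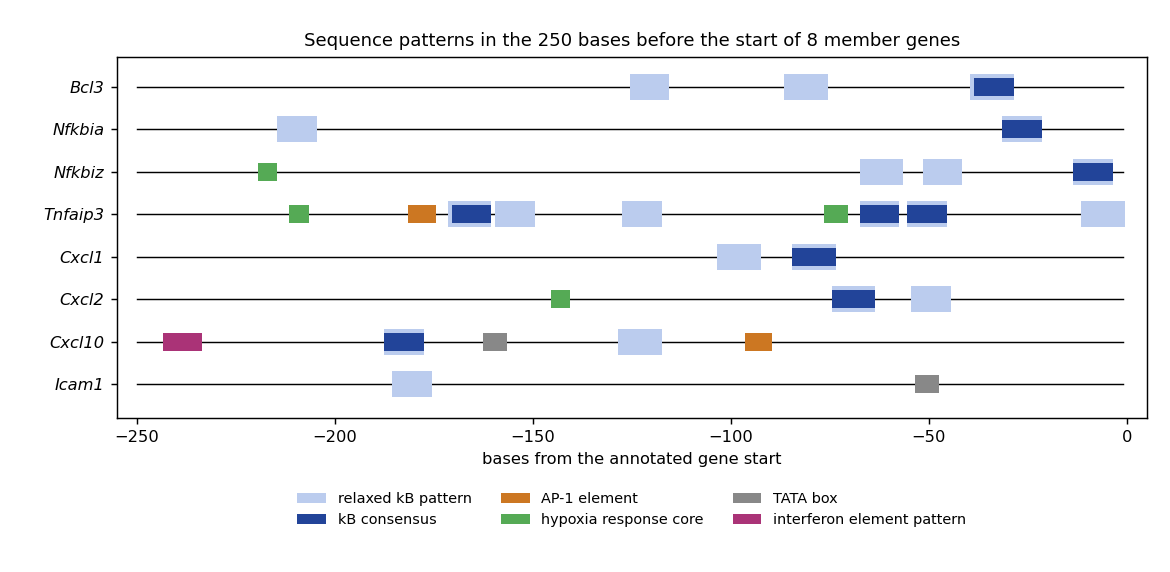
Positions of the sequence patterns in the 250 bases before the annotated start of 8 member genes; the x axis is the distance in bases from the start, and each box is 1 match. Dark blue boxes, the kB consensus, start within 84 bases of the gene start in Bcl3, Nfkbia, Nfkbiz, Cxcl1 and Cxcl2, and in Cxcl10 the only one starts 187 bases before it.

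After 24 h in deferoxamine, FAO cells gave higher signals for 3 chemokines and for 2 feedback regulators of the I-kappa-B family. The scaled signal was 7.67-fold higher for Cxcl10, 5.97-fold higher for Cxcl1 and at least 5.56-fold higher for Cxcl2. It was 2.45-fold higher for Bcl3. For Nfkbiz it was 2.23-fold higher, a log2 bound of 1.16 that was no larger than its SE of 1.16. Nfkbia and Icam1 differed by less than 2-fold, and Tnfaip3 and Ccl2 were not well above background on either FAO array. Of the 7 members measured, 5 were 2-fold or more higher and 0 lower, with a median log2 difference of 1.29. Over all 10742 genes measured in these cells, 4.03% were 2-fold or more higher, 6.41% were lower and the median was 0.03.

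Among the regulators, Bcl3 encodes an I-kappa-B-like nuclear protein that works with p50 and p52 dimers at their target genes. Its 10 spots in untreated FAO cells ran from 1651 to 1911 with a median of 1828. The 9 spots used in deferoxamine ran from 4066 to 4890 with a median of 4369. The spots of the arrays did not overlap, and the log2 difference was 1.29 ± 0.04 (SE), higher at 9 of 9 matched spot positions. Nfkbiz encodes a further nuclear I-kappa-B protein, needed for induction of a subset of secondary response genes. Its 2 spots read 24.4 and 35.2 in untreated cells, where only 1 was well above background, and 61.9 and 69.1 in deferoxamine. The bound of 1.16 on the log2 scale rests on these 2 dim spots, with an SE of 1.16 for spots of that brightness. Nfkbia encodes I-kappa-B alpha, the classical cytoplasmic inhibitor that NF-kappa B itself induces. Its spots read 422 and 435 in untreated cells and 522 and 585 in deferoxamine, a difference of 0.37 ± 0.27 (SE). Tnfaip3, which encodes the ubiquitin-editing feedback inhibitor A20, has 1 spot on this array, at 4.36 and 5.36.

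Of the chemokines, Cxcl1 and Cxcl2 attract neutrophils through the receptor CXCR2, Cxcl10 attracts activated T cells through CXCR3 and Ccl2 attracts monocytes through CCR2. In untreated FAO cells the 10 Cxcl1 spots ran from 70.2 to 186 with a median of 86.6. The 8 spots used in deferoxamine ran from 511 to 597 with a median of 554. The groups did not overlap, and the difference was 2.58 ± 0.13 (SE), higher at 8 of 8 positions. The Cxcl2 spots read 4.35 and 5.21 in untreated cells, well under the dimmest measurable signal of 21.3, and 102 and 138 in deferoxamine. Its bound was 2.47, and deferoxamine-treated FAO was the only array of the 6 on which Cxcl2 was well above background in both spots. The Cxcl10 spots read 275 and 301 in untreated cells against 2137 and 2281 in deferoxamine, a difference of 2.94 ± 0.23 (SE). Ccl2 had mean signals of 4.80 and 5.10, both far under the measurable range.

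Icam1, the endothelial and epithelial ligand of leukocyte integrins, was well above background in all spots. Its 10 spots ran from 921 to 1061 in untreated cells and its 7 used spots from 1442 to 1741 in deferoxamine. The arrays did not overlap, but the difference of 0.64 ± 0.05 (SE), 1.56-fold, was under 2-fold, higher at 7 of 7 positions. Markers of leukocytes were near background in these cells: 2 of 16 were measured without and 3 of 16 with deferoxamine, with summed signals of 232 and 216, and Ptprc, Csf1r and Cd3e were not well above background on either array. Of the 10 hepatocyte markers 1 (Fgb) was 2-fold or more higher and 3 lower with deferoxamine. A second Fgb probe gave a bound of only 0.05, and Ttr, among the lower, went from -1.67 to -0.65 with blocks of wide departure left out. On the deferoxamine array 2 Cxcl1 spots, at 6.24 and 359, were marked as outliers by the scanner software. With outlier spots kept, that array no longer counted as measured for Cxcl1 and its bound was 0.00, and with normexp background correction the Nfkbiz bound was 0.81.

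**Figure D2:**
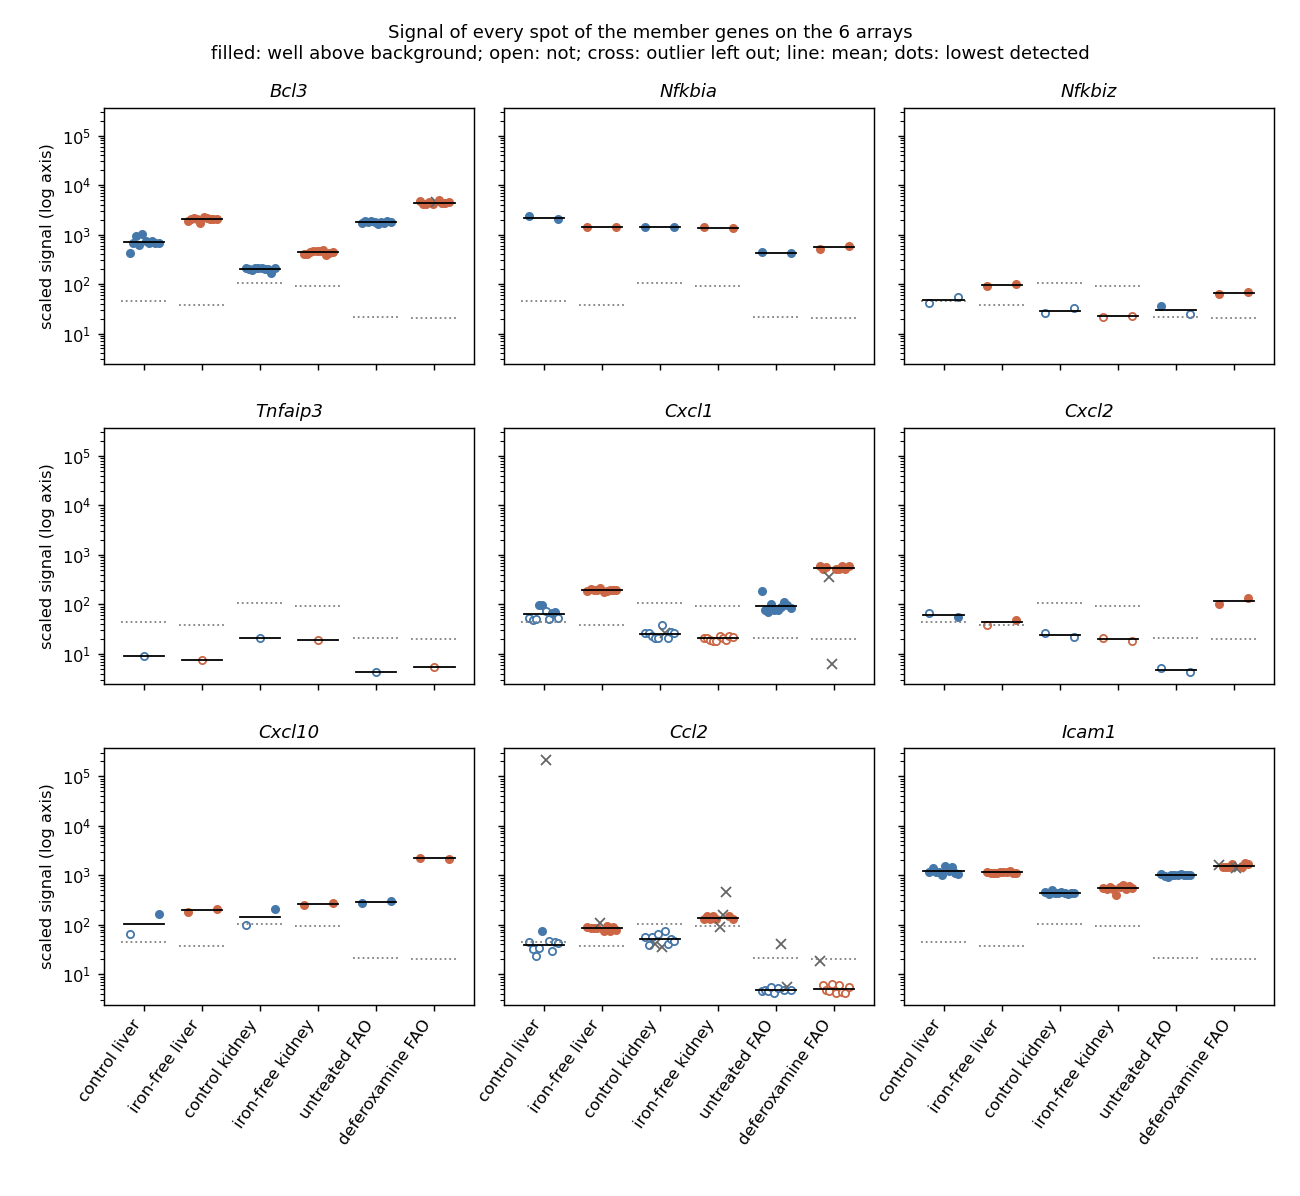
Scaled signal (log axis) of every spot of 9 member genes on the 6 arrays; filled points are well above background, open points are not, crosses are outlier spots left out, black lines are means and dotted lines the dimmest measurable signal. Bcl3 and Cxcl10 have their highest mean in deferoxamine-treated FAO cells, at 4391 and 2208.

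In liver, the iron-free array gave higher signals for Bcl3, Cxcl1 and Nfkbiz. Bcl3 was 2.92-fold higher and Cxcl1, by a bound, 3.03-fold. Nfkbiz was 2.04-fold higher, a log2 bound of 1.03 with an SE of 0.68. Ccl2 had a bound just under 2-fold, Cxcl10 a bound that rests on the control array's noisier spots, and Nfkbia and Icam1 differed by less than 2-fold. Of the 7 members measured, 3 were 2-fold or more higher and 0 lower, with a median of 0.94 that includes 4 bounds. Over all 10428 genes measured in liver, 6.36% were higher and 2.93% lower (663 and 306 genes), with a median of 0.01. Scaling the arrays to the median of their detected probes instead moved that median to 0.59 and the split to 2120 higher and 78 lower genes, and 5 members then passed 2-fold.

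The 10 Bcl3 spots ran from 427 to 1048 on the control liver array, with a median of 682, and from 1746 to 2228 on the iron-free array, with a median of 2090. They did not overlap, and the difference was 1.54 ± 0.12 (SE), higher at 10 of 10 positions. Nfkbiz spots read 41.7 and 53.5, neither well above background, in control liver and 91.8 and 101 in iron-free liver, a bound of 1.03. Nfkbia went the other way, with spots of 2019 and 2323 in control liver and of 1396 and 1409 in iron-free liver. That difference was -0.63 ± 0.28 (SE), under 2-fold. Over the alternative ways of processing it ran from -0.68 to -0.05, so its size depends on the processing. The single Tnfaip3 spot was at background on both arrays.

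Cxcl1 spots ran from 48.1 to 97.6 in control liver, where 4 of 10 were well above background, and from 174 to 213 in iron-free liver. Without overlap, the bound was 1.60, higher at 10 of 10 positions. Cxcl10 read 64.8 and 162 in control liver, a wide gap between 2 spots of 1 probe, and 184 and 210 in iron-free liver, for a bound of 0.94. The lower control spot lay in a block of wide departure, and with it left out Cxcl10 was measured on both arrays and differed by 0.30. The 9 Ccl2 spots used ran from 23.6 to 74.7 in control liver, where 1 was well above background, and from 74.4 to 96.4 in iron-free liver. The ranges overlapped at their ends, the bound was 0.90 and the signal was higher at 8 of 8 positions. The tenth Ccl2 spot in control liver read 213678, lay in a block of widely departing spots and was marked as an outlier by the scanner software. Cxcl2 was not well above background in both spots of either liver array. Icam1 ran from 1023 to 1530 in control and from 1110 to 1241 in iron-free liver, overlapping over the whole iron-free range, with a difference of -0.079 ± 0.07 (SE) that became 0.50 with scaling to the median of detected probes.

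Some markers of leukocytes and Kupffer cells were also higher on the iron-free liver array. Of 16 listed, 13 were measured in control and 14 in iron-free liver, and their summed signal was 44498 and 53039. Lyz2 alone read 2771 and 7890. Of the 14, 4 were 2-fold or more higher (Marco, Lyz2, S100a8, S100a9) with 0 lower and a list median of 0.23. The others lay between -0.33 and 0.29. Among them Adgre1, Csf1r, C1qa and Vsig4 were lower, and Ptprc, Cd68, Clec4f, Cd163, Itgam and Cd74 higher. Marco had no spot outside the blocks of wide departure. Of 8 endothelial markers 7 were measured on each liver array, with summed signals of 14301 and 12193, and 2 (Stab2, Lyve1) were 2-fold or more higher. The part of these cells in the Bcl3 and Cxcl1 differences was not tested. Spots in blocks of wide departure on the control liver array held 2 of the 10 Bcl3 spots, 1 of 10 Cxcl1 spots and 1 of 2 for each of Nfkbiz and Cxcl10. With those blocks left out, Bcl3 (1.70), Cxcl1 (a bound of 1.69) and Nfkbiz (a bound of 1.13) were 2-fold or more higher. Cxcl10 was then at 0.30. With normexp background correction 1 member was, as the Cxcl1 bound came to 0.58 and the Nfkbiz bound to 0.29.

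In kidney, Bcl3 was 2.18-fold higher on the iron-free array and was the only member past 2-fold. The 10 spots ran from 171 to 211 in control kidney, with a median of 206, and from 389 to 481 in iron-free kidney, with a median of 440. The arrays did not overlap, and the difference was 1.13 ± 0.04 (SE), higher at 10 of 10 positions. Of the 5 members measured, 1 was 2-fold or more higher and 0 lower, with a median of 0.41. Over all 9092 genes measured in kidney, 3.06% were higher and 1.24% lower (278 and 113 genes), with a median of -0.03. With scaling to the median of detected probes the median was 0.16 and the split 402 to 79, and 2 members passed 2-fold. With normexp background correction the Bcl3 difference was 0.75, which is under 2-fold.

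Nfkbia read 1412 and 1441 in control and 1378 and 1397 in iron-free kidney, a difference of -0.04 ± 0.18 (SE) that became 0.16 with scaling to the median of detected probes. Cxcl10 read 98.6 and 211 in control and 255 and 275 in iron-free kidney, for a bound of 0.88. The 8 Ccl2 spots used ran from 38.6 to 75.9 in control kidney, none well above background, and the 7 used in iron-free kidney from 128 to 153. These did not overlap, and the signal was higher at 6 of 6 positions. The dimmest signal that the control kidney array could measure was 105, so the bound for Ccl2 was only 0.41, while the signals as measured differed by 1.40. Icam1 ran from 421 to 501 in control and from 395 to 627 in iron-free kidney, with overlap, and differed by 0.29 ± 0.06 (SE), higher at 9 of 10 positions. On the kidney arrays neither Nfkbiz, Tnfaip3, Cxcl1 nor Cxcl2 was well above background. Leukocyte markers summed to 51085 and 52122 in kidney, with 0 of the 8 measured past 2-fold. Lyz2 (27532 and 33646) and Cd74 (19343 and 13948) held most of both sums and went opposite ways. Of the markers not measured on either kidney array, S100a8 (25.6 and 104) and S100a9 (111 and 238) read higher without iron. Others, such as Marco (36.1 and 22.7) and Cd163 (34.3 and 21.1), read lower. Fibroblast markers summed to 4221 in control and 9138 in iron-free kidney, with Col1a2 and Col3a1 past 2-fold, and their part in the Ccl2 or Bcl3 values was not tested.

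**Figure D3:**
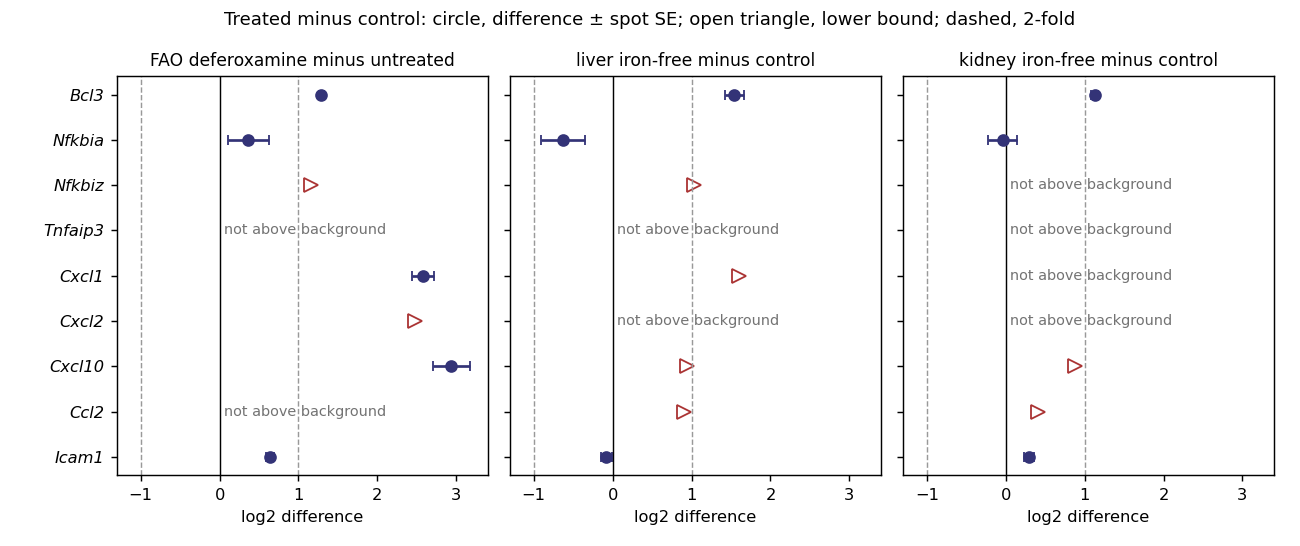
Log2 difference of treated minus control scaled signal for each member in FAO cells, liver and kidney. Circles are differences with spot SE, open triangles bounds and dashed lines 2-fold. Bcl3 lies past 2-fold in each panel, at 1.29, 1.54 and 1.13, while Nfkbia lies at 0.37, -0.63 and -0.04.

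Set side by side, only Bcl3, Nfkbia, Cxcl10 and Icam1 had a difference or bound in all 3 comparisons. Of these, Bcl3 alone was 2-fold or more higher in each, and in kidney it was 0.75 with normexp background correction. The share of all genes past 2-fold in all 3 was not counted, and the members were chosen with these differences in view. Cxcl1 and Nfkbiz passed 2-fold in FAO cells and liver and could not be measured in kidney. Cxcl10 passed 2-fold in FAO cells, where the difference was 2.94, against bounds of 0.94 in liver (0.30 without the spot in a block of wide departure) and 0.88 in kidney. Ccl2 was measurable only on the iron-free liver and iron-free kidney arrays. An outlier spot on the iron-free kidney array, at 90.7, was not well above background, so Ccl2 did not count as measured there with outlier spots kept. Over the alternative ways of processing its liver value ran from 0.00 to 1.49. The differences between the comparisons were not tested, since each rests on 1 pair of arrays.

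**Figure D4:**
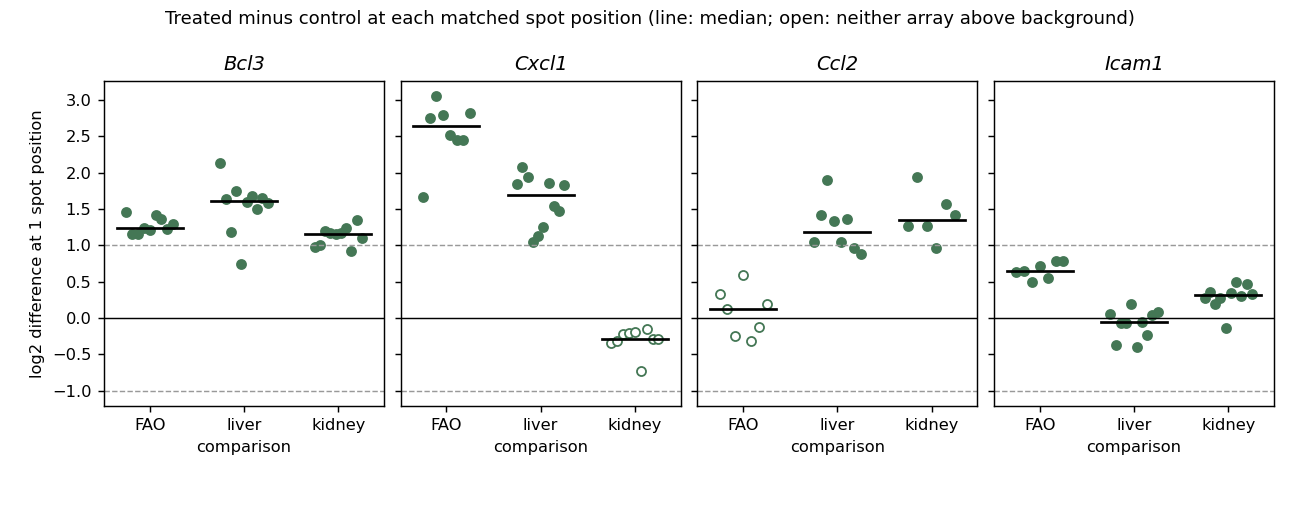
Log2 difference of treated minus control at each matched spot position for the 4 members with 10 spots; lines are medians, open points mark pairs in which neither array was above background and dashed lines mark 2-fold. Median differences for Bcl3 are 1.24 in FAO cells, 1.61 in liver and 1.16 in kidney, and for Icam1 they are 0.65, -0.06 and 0.32.

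Across the 6 arrays the members differed in where they were measurable. Bcl3, Nfkbia and Icam1 were measured on all 6 arrays, Cxcl10 on 4, Cxcl1 on 3, Nfkbiz and Ccl2 on 2, Cxcl2 on 1 and Tnfaip3 on 0. Mean Bcl3 signal descended from deferoxamine-treated FAO (4391) through iron-free liver (2052), untreated FAO (1794), control liver (704) and iron-free kidney (441) to control kidney (202). Each step was larger than 2 SE of the spots. Spot SE does not cover the scaling between arrays, and the orders given here were not repeated with other scalings. Nfkbia ran in another order: control liver (2165) was highest, control kidney (1427), iron-free liver (1403) and iron-free kidney (1387) did not differ beyond 2 SE, and the FAO arrays (553 and 429) were lowest. Icam1 was highest in deferoxamine-treated FAO (1567), followed by control liver (1220) and iron-free liver (1155), which lay within 2 SE of each other. Untreated FAO (1008), iron-free kidney (546) and control kidney (446) came next, each step beyond 2 SE. Cxcl1 had its order among measured arrays as deferoxamine-treated FAO (552), iron-free liver (194) and untreated FAO (92.5), again with steps beyond 2 SE. For Cxcl10, deferoxamine-treated FAO (2208) stood above untreated FAO (288), iron-free kidney (265) and iron-free liver (196), and neighbours among these last did not differ beyond 2 SE.

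Between untreated sources, Bcl3 was 2.55-fold higher in FAO cells than in control liver and Nfkbia 5.05-fold lower, with log2 differences of 1.35 ± 0.11 and -2.34 ± 0.29 (SE). Cxcl10 was 2.81-fold higher in FAO cells, by a bound that rests on 2 control liver spots. The lower of those spots lay in a block of wide departure, and the log2 differences at the 2 positions were 0.89 and 2.09. In that comparison 2 of 5 measured members were 2-fold or more higher and 1 lower, against 26.1% and 26.2% of all genes measured. Control kidney lay below control liver for Bcl3 (-1.80), Icam1 (-1.45) and Nfkbia (-0.60), with 2 of 3 measured members 2-fold or more lower and 0 higher, against 14.1% and 25.3% of all genes. Untreated FAO cells lay above control kidney for Bcl3 (3.15) and Icam1 (1.18) and below it for Nfkbia (-1.73), so that 2 of 5 measured members were higher and 1 lower, against 17.4% and 26% of all genes. Endothelial markers, among them cells known to carry Icam1, were measured in 7 of 8 cases in control liver, 4 in control kidney and 2 in untreated FAO cells, with summed signals of 14301, 10144 and 530. The dimmest measurable signal on these arrays was 45.0, 105 and 21.3 in the same order, so the counts are not on a common scale. Kdr alone gave 11199 of the control liver sum. The part of endothelial cells in the Icam1 levels was not tested.

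Nfkbia was taken, by a fixed rule, as the member measured on all arrays with the highest mean log2 signal, a choice that says nothing of the genes' relative abundance. Its profile over the 6 arrays was compared with those of the 6471 genes measured on all of them. The 5 nearest, by Euclidean distance of centred log2 levels, were Actc1 (0.24), Polr3a (0.24), Wdfy2 (0.30), Araf (0.34) and Tmem229a (0.35).

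The rest of the pathway was described by fixed lists of genes. Lists of subunits, inhibitors, kinases and adaptors, upstream receptors and ligands, other targets, other chemokines, and chemokine receptors and integrins held 117 genes on the array beside the members. In FAO cells 67 were measured, of which 7 (10.4%) were 2-fold or more higher and 4 (5.97%) lower, against 4.03% and 6.41% of all genes, with a median of 0.27. In liver 4 of 80 (5%) were higher and 0 lower, against 6.36% and 2.93% of all genes, with a median of -0.01 beside 0.01 for all genes measured there. In kidney 6 of 63 (9.52%) were higher and 1 (1.59%) lower, against 3.06% and 1.24% of all genes, with a median of 0.09. As for the members, bounds count in these numbers.

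The 3 NF-kappa B subunits measured stayed within 2-fold in each comparison, between -0.34 and 0.36. None of the 8 other inhibitors and feedback genes measured in FAO cells passed 2-fold, nor did any of 7 in liver or 4 in kidney. Of 17 kinases and adaptors in FAO cells only Traf3, an adaptor that restrains the non-canonical branch, was past 2-fold, with a bound of -2.59. That value came from a probe in a block of wide departure: it was 0.20 with such blocks left out, and a second probe gave -0.01. Of 9 upstream receptors and ligands in FAO cells only Cd14, the lipopolysaccharide co-receptor, was higher, at 1.34.

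Other targets in FAO cells were higher for Lcn2, an iron-siderophore binding protein (2.44), Junb, an AP-1 subunit (1.86), and Ier3, an early response gene that lay just past 2-fold and at 0.98 with blocks of wide departure left out. Of the same 17, Il1rn, the interleukin-1 receptor antagonist (a bound of -1.49), and Cfb, complement factor B (-1.11), were lower. Among 11 other chemokines in FAO cells Cx3cl1 (2.11), Cxcl3 (a bound of 1.74) and Cxcl16 (1.59) were higher. The Cxcl3 bound rests on 1 spot per array, and a second Cxcl3 probe was not well above background on either FAO array. Ccl9 had a bound of -1.21, which became -0.05 with blocks of wide departure left out. In liver Traf1, a target that encodes an adaptor (a bound of 1.77), and the chemokines Pf4 (1.38), Cxcl13 (a bound of 1.18) and Cxcl14 (1.04) were higher. Traf1, like Junb above, has only 1 spot on each array. In kidney the endothelial adhesion molecule Vcam1 was higher (1.29). So were the chemokines Cxcl14 (a bound of 3.25), Ccl19 (1.38) and Ccl21 (a bound of 1.20). The scavenging chemokine receptor Ackr3 was also higher (a bound of 1.14). Pf4 also passed 2-fold there, by a bound of 1.02, and Cxcl13 was lower, with a bound of -1.94.

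**Figure D5:**
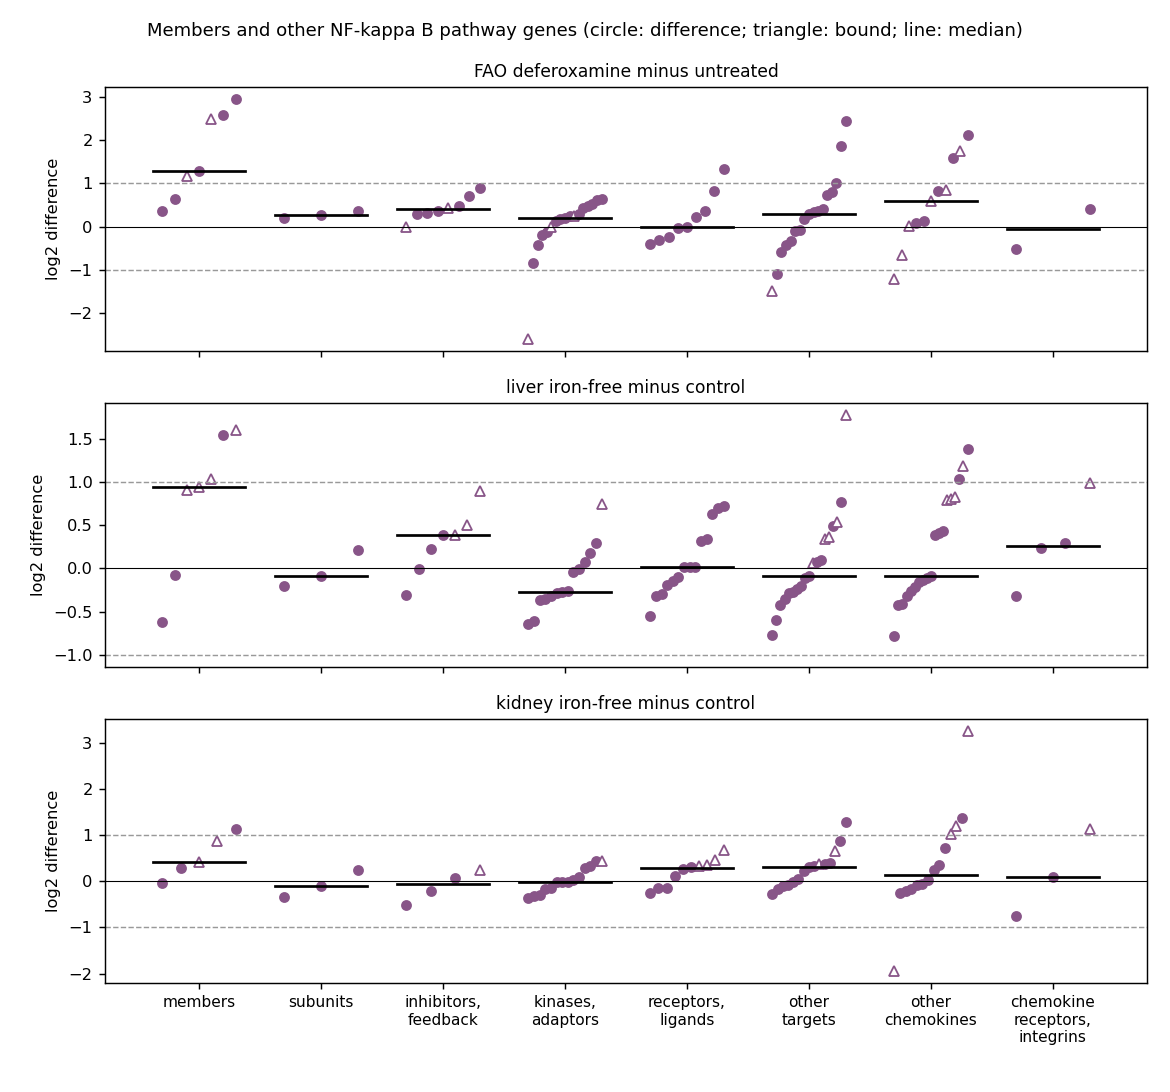
Log2 difference of treated minus control for the members and 7 lists of other NF-kappa B pathway genes in FAO cells, liver and kidney; circles are differences, open triangles bounds, black lines medians and dashed lines 2-fold. The member medians are 1.29, 0.94 and 0.41, and all subunit values lie between -0.34 and 0.36.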

How the data were processed

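The values are intensities that the authors deposited: per the file headers, one-colour Agilent Feature Extraction 10.7.3.1 output for array design 028279, with all 6 arrays on 1 slide. The deposited processed intensity of each spot is background-subtracted. The authors' deposited table also holds a log2 value per probe and array, which was used as an alternative and matched the scanner files as log2 intensity minus about the array's 75th percentile. From the processed intensities, spots marked as outliers were left out, log2 values were averaged over the spots of a probe, and each array was set to the 75th percentile of the 9091 probes (of 30367) well above background on all arrays. A gene with several probes took its brightest. Spot errors came from the probe's own spots where it had 10, and otherwise from probes of like signal in 20 bins. With 1 array per group no test was run, and a 2-fold difference or bound was used as a rule of size. The step that calls 2-fold differences was tested on simulated pairs of arrays. Changes were put only into genes far above background, so recovery of dim genes, scaling and noisy blocks were not covered. The members, lists and rules were chosen with earlier results of these data known. All members are named with every probe, of each list the genes past 2-fold (at most 3 per direction and comparison, besides genes named where a count was small), and the 5 genes nearest in profile. Alternatives covered scaling, normexp background correction (limma 3.58.1 in R 4.3.3, offset 50, on median and background-median signals), the authors' values, noisy blocks, outlier spots, the mean or median over spots and the filter on dim probes. Python 3.11.15, numpy 2.4.6 and pandas 2.3.3 were used. Array precision is limited by the number of arrays.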

Additional observations from a re-analysis of the deposited data

Results flagged for a closer look

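Icam1 was singled out because its difference had opposite signs in liver and kidney: iron-free minus control was -0.079 (SE 0.07) in liver and 0.29 (SE 0.06) in kidney. The liver and kidney differences rest on 1 array per group, and the difference between them was not tested. With arrays scaled to the median of their detected probes, the liver value was 0.50 and the kidney value 0.49.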

How the results depend on the processing

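No paired analysis was possible because each group has 1 array, so its replicate number only names the array and no pair can be repeated; for the same reason no replicate could be left out. All 10 alternatives were run in each of the 3 treated minus control comparisons. The differences between untreated sources and the orders of levels over the arrays were not run under any alternative. The count of 5 members past 2-fold in FAO cells stayed at 4 or 5. In liver the count of 3 was 5 when arrays were scaled to their detected probes' median and 1 with normexp. Smaller changes in that count are not listed. Liver Nfkbiz, at 1.03, stayed past 2-fold under only 7 of the 10, and liver Ccl2, at 0.90, stayed under 2-fold in 7. In kidney the count of 1 was 2 with that scaling, with the milder filter on dim probes, and with no filter, and 0 with normexp. Bcl3 stayed past 2-fold in FAO cells (1.26 to 1.34) and in liver (1.40 to 2.12) under all 10. Of the 117 other pathway genes, the count higher in liver (4) was 18 with median scaling and 2 with normexp. The count lower in FAO cells (4) was 2 with normexp or without noisy blocks and 9 with no filter, which also gave 13 higher in FAO cells (against 7). The count higher in kidney (6) was 3 with normexp. The count lower in kidney (1) was 3 with the milder filter and 4 with none, and the count lower in liver (0) was 1 without noisy blocks, 2 with the milder filter and 3 with none. Over all genes measured, the counts higher and lower were 433 and 689 in FAO cells, 663 and 306 in liver and 278 and 113 in kidney. They were 349 and 523, 366 and 175, and 188 and 70 with normexp, 421 and 407, 500 and 282, and 247 and 117 without noisy blocks, 730 and 1096, 1068 and 463, and 548 and 337 with the milder filter, and 1202 and 1642, 1437 and 1769, and 878 and 730 with none. With no filter more genes are counted by construction; the cause of the other changes was not tested. Signal over background limits Nfkbiz, Tnfaip3, Cxcl2 and Ccl2 most.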
